A study of Mus musculus with 10 samples.

Results

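A set of 34 mouse cell cycle and replication genes was examined, chosen by symbol for their roles in DNA replication, nucleotide synthesis, the cyclins, mitosis and the block of the cycle by the inhibitor Cdkn1a. Of these, 33 were measured among 18193 genes on the arrays, and all 33 were among the 13644 genes bright enough to be tested. The platform annotation lists Ccnb1, a mitotic cyclin, under no probe set of its own, and it was not analysed here. Each gene was read from 1 probe set, the one with the highest mean over the 10 arrays, and its value is a linear intensity, the brightness of the probe set in the units of the deposited table.

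The samples were total RNA of F2 mice from a cross of the inbred strains C57BL/6 (B6) and BALB/c, labelled as CF-/- knockouts (8 mice) or as controls (2 mice); CF stands for cystic fibrosis, the disease caused by loss of the chloride channel gene Cftr. Among the knockouts, 5 carry the title code H and 3 the code L, and the controls carry D in that place and end in W. None of these codes is spelled out, although the series title speaks of variable weight, and whatever D codes cannot be told apart from the absence of the knockout. Titles also hold a letter, M (6 mice) or F (4 mice), and a number, which in 5 knockouts falls in an upper range and in the other 3 and both controls in a lower one. The design text counts more mice in both classes than these 10, and the remainder were not analysed here. The labels used here give no age, Cftr allele, diet or treatment.

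Cftr itself followed the labels, at 19.7 to 35.4 (median 29.8) in knockouts, against 131 and 137 in controls (log2 difference -1.91 ± 0.16 SE, limma adjusted p = 0.00528). The tissue is labelled as whole right lung, whereas the series title names the intestine. Markers of both were bright: among enterocyte markers the median of Fabp2 over knockouts was 4200 and that of Vil1 2668, and among lung epithelial markers that of Sftpc was 1822. The ciliated cell gene Foxj1, at 16.7, lay near the array medians of 18.4 to 18.8. The summed intensity of the 11 lung epithelial markers tested ran from 4073 to 13703 in knockouts, against 4992 and 5202 in controls. Knockouts H2 and H5 were the highest in these markers (mean log2 deviations of 1.02 and 0.72 from the mean of all 10 arrays). The RNA came from whole tissue, so fewer cells of a type and less RNA per cell cannot be told apart. Each mouse is taken as separate from its own number in the title, and every p-value reflects the spread among these samples alone.

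Cells license their replication origins in G1 by loading the Mcm2 to Mcm7 helicase with the help of Cdc6, while geminin (Gmnn) blocks relicensing from S phase on. Ribonucleotide reductase and thymidylate synthase make the DNA precursors, Pcna clamps the polymerase to DNA, and cyclins with Cdk1 drive the cell through S phase into mitosis, where kinases, the spindle checkpoint and the anaphase-promoting complex (APC) order chromosome segregation. Cdkn1a, also called p21, inhibits cyclin-dependent kinases and is a classical target of p53. In the intestine such genes are active in the dividing cells of the crypts and low in the differentiated cells of the villi, and in the adult lung few cells divide.

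Promoter sequence is shown because these genes are textbook targets of shared regulators: E2F factors at replication genes, the CHR element and CCAAT boxes (bound by NF-Y) at mitotic genes, and p53 at Cdkn1a. The windows are the 250 bases upstream of the RefSeq start, read 5′ to 3′ on the strand of the gene in GRCm38.p6, and capitals mark the words searched on both strands. The 5 shown stand for a licensing gene, the member that rose, 2 mitotic genes and the member that fell. They lie at chr1:128359706-128359955 (minus strand) for Mcm6, chr7:102441445-102441694 (plus) for Rrm1, chr10:69352913-69353162 (minus) for Cdk1, chr9:70421555-70421804 (minus) for Ccnb2 and chr17:29090729-29090978 (plus) for Cdkn1a.
Mcm6: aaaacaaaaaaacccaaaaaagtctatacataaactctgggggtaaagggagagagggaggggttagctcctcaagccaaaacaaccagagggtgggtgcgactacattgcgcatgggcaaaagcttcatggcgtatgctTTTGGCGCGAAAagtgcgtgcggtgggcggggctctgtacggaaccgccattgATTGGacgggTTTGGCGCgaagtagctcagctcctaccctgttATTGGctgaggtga
Rrm1: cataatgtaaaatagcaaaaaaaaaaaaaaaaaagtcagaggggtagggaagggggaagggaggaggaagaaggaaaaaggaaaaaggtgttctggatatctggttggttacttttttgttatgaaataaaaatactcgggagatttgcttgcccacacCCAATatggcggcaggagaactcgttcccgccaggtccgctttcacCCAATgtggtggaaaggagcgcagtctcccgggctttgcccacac
Cdk1: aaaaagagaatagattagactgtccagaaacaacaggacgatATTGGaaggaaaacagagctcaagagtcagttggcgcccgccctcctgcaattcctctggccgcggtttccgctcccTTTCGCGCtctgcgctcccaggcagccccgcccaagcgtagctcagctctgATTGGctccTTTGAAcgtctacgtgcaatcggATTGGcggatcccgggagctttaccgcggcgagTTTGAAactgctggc
Ccnb2: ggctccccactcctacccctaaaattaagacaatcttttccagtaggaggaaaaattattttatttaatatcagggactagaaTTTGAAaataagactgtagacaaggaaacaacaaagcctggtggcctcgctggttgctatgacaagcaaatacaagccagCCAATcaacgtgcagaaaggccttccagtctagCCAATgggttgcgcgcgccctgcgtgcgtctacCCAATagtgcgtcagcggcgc
Cdkn1a: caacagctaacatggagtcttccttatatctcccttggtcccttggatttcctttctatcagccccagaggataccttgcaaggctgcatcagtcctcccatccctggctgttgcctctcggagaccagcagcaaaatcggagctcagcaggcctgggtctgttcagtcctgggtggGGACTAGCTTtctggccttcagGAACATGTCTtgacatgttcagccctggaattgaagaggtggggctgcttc

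RefSeq windows matched 28 of the 34 genes. The first window listed was kept for each gene symbol, and any other start of a gene was not searched. An E2F word (TTTGGCGC, TTTCCCGC, TTTCGCGC or TTTGCCGC) was present in 5 of these 28, namely Mcm5, Mcm6, Mcm7, Cdc6 and Cdk1, while 1.91% of all 27025 mouse windows hold one. Of the 7 licensing and fork genes with a window, 4 carried it, and of the 3 nucleotide synthesis genes, among them Rrm1, 0 did. The Mcm6 window held 3 E2F words, of which the ones at bases 141 to 148 and 145 to 152 overlap on opposite strands. The CHR word TTTGAA was present in 8 of 28 (16.3% of all windows), CCAAT in 22 of 28 (34.5%), and the p53 decamer, searched by its consensus, in 4 of 28 (7.18%). CCAAT did not set the mitotic genes apart: 6 of 7 licensing and fork genes held it, as did 6 of 7 mitotic kinase, checkpoint and APC genes. The CHR word and CCAAT are short, as their shares over all windows show, and a match is a description of the letters. In Cdkn1a the decamers at bases 178 to 187 and 200 to 209 were the only marked words.

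In knockout mice Rrm1, the large subunit of ribonucleotide reductase, rose, and Cdkn1a fell. These were the only members of the 33 past the adjusted threshold of 0.05, at which 1.52% of all 13644 genes rose and 2.79% fell. With 1 member in each direction, the counts of calls were near those shares. Most of the other members lay higher in knockouts without passing it: 28 of 33 log2 differences were above 0, against 48.7% of all genes, with a median of 0.24 over the members and -0.0047 over all genes. Without H5 the median of the members was 0.15, and without both H2 and H5 it was 0.14. All 8 knockouts lay above both controls for 12 of the 33 members, which 10% of all genes did, and below both for Cdkn1a alone (11.7% of all genes). At an unadjusted p under 0.05, limma gave 8 members higher and 1 lower (8.66% and 10.8% of all genes). The estimate adjusts for the number range and the letter, so it rests largely on the 3 knockouts of the lower range and the 2 controls.

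**Figure D1:**
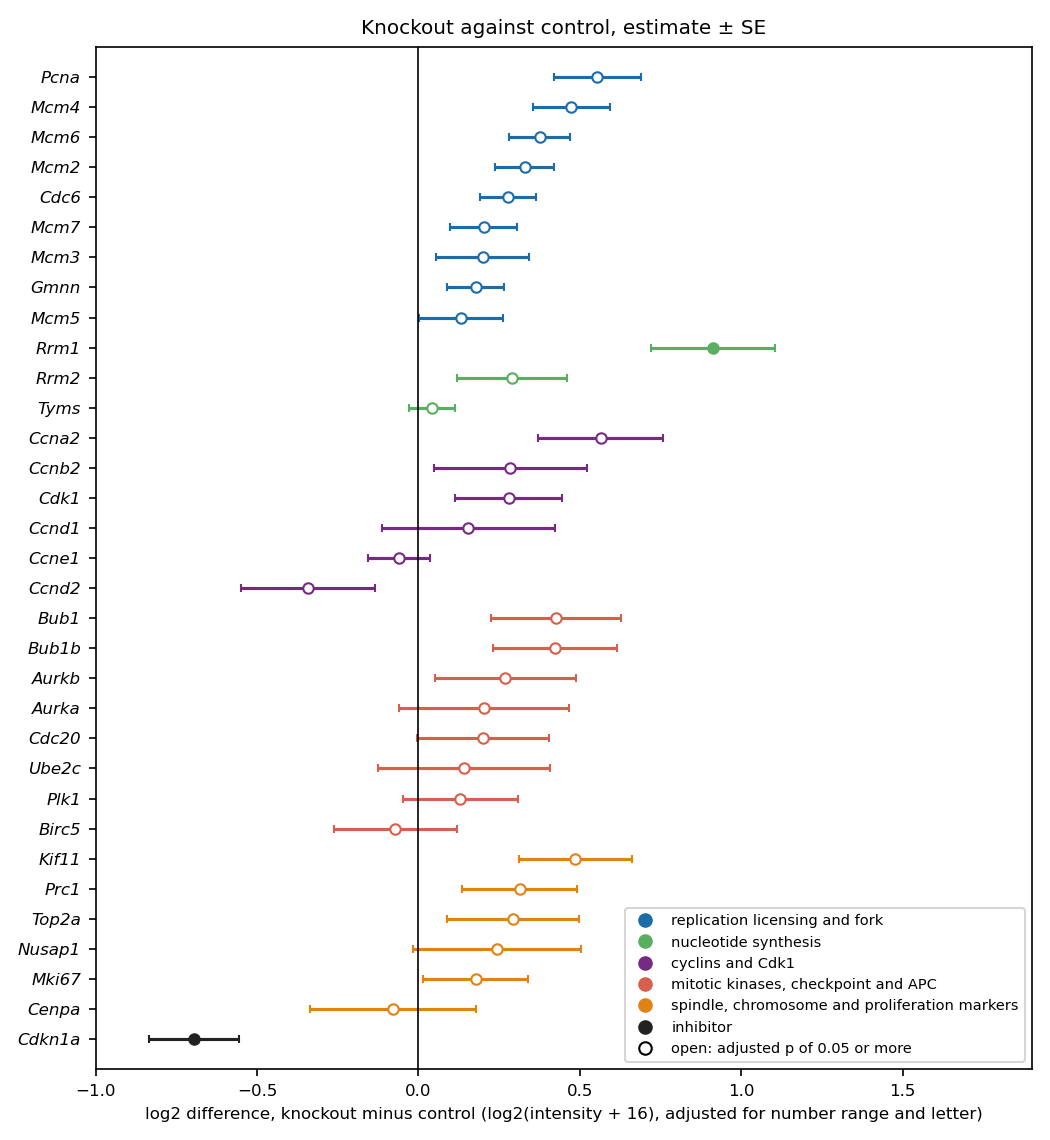
Log2 difference between knockouts and controls (x axis, log2 of intensity plus 16, adjusted for number range and letter) for the 33 genes, grouped by role and colour. Points are estimates, bars their SE, and filled points have an adjusted p under 0.05: Rrm1 at 0.91 to the right of 0 and Cdkn1a at -0.70 to the left, with all 9 licensing and fork genes to the right.

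The 9 genes of replication licensing and the fork all had log2 differences above 0 (0.13 to 0.55, median 0.28), and none passed the threshold. For 7 of the 9 every knockout lay above both controls (10% of all genes), and in the lower number range all 3 knockouts did so for 9 of 9 (19.1% of all genes). The sliding clamp Pcna had intensities of 1261, 1264, 1009, 1340 and 1131 in H knockouts and 1294, 1274 and 1122 in L knockouts, against 921 and 679 in controls. No knockout reached down to a control (log2 difference 0.55 ± 0.13 SE, limma adjusted p = 0.0544). Mcm6, a subunit of the helicase ring, had 271, 292, 267, 333 and 257 in H knockouts and 284, 323 and 268 in L knockouts, against 234 and 187 in controls. The difference was smaller than for Pcna and again without overlap (0.38 ± 0.09 SE, limma adjusted p = 0.0591).

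Mcm4 had 151, 193, 146, 175 and 147 in H knockouts and 173, 177 and 152 in L knockouts, against 105 and 111 in controls. The controls lay close together and well below the lowest knockout (0.47 ± 0.12 SE, limma adjusted p = 0.0611). Mcm2 had 99.6, 104, 108, 126 and 92.8 in H knockouts and 119, 117 and 114 in L knockouts, against 90.9 and 74.0 in controls. Here knockout H5 came close to the higher control (0.33 ± 0.09 SE, limma adjusted p = 0.0819). The loader Cdc6 was dimmer, at 27.3, 28.1, 27.9, 31.0 and 25.4 in H knockouts and 31.7, 29.9 and 23.7 in L knockouts, against 20.7 and 17.1 in controls. Its groups did not overlap either, though its intensities lie not far above the array medians (0.28 ± 0.09 SE, limma adjusted p = 0.118).

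The licensing inhibitor Gmnn had 172, 185, 162, 163 and 173 in H knockouts and 196, 181 and 173 in L knockouts, against 154 and 142 in controls. It was higher in every knockout by a small margin (0.18, limma adjusted p = 0.316). Mcm7 had 623, 579, 488, 610 and 480 in H knockouts and 565, 647 and 550 in L knockouts, against 478 and 442 in controls, so that knockout H5 lay just above the higher control. Mcm3 and Mcm5 overlapped between the groups at the probe sets used, with log2 differences of 0.20 and 0.13. Their other probe sets (0.24, 0.43 and 0.21 for Mcm3, 0.50 for Mcm5) did not overlap. All had every knockout above both controls, which 10.7% of all probe sets did.

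**Figure D2:**
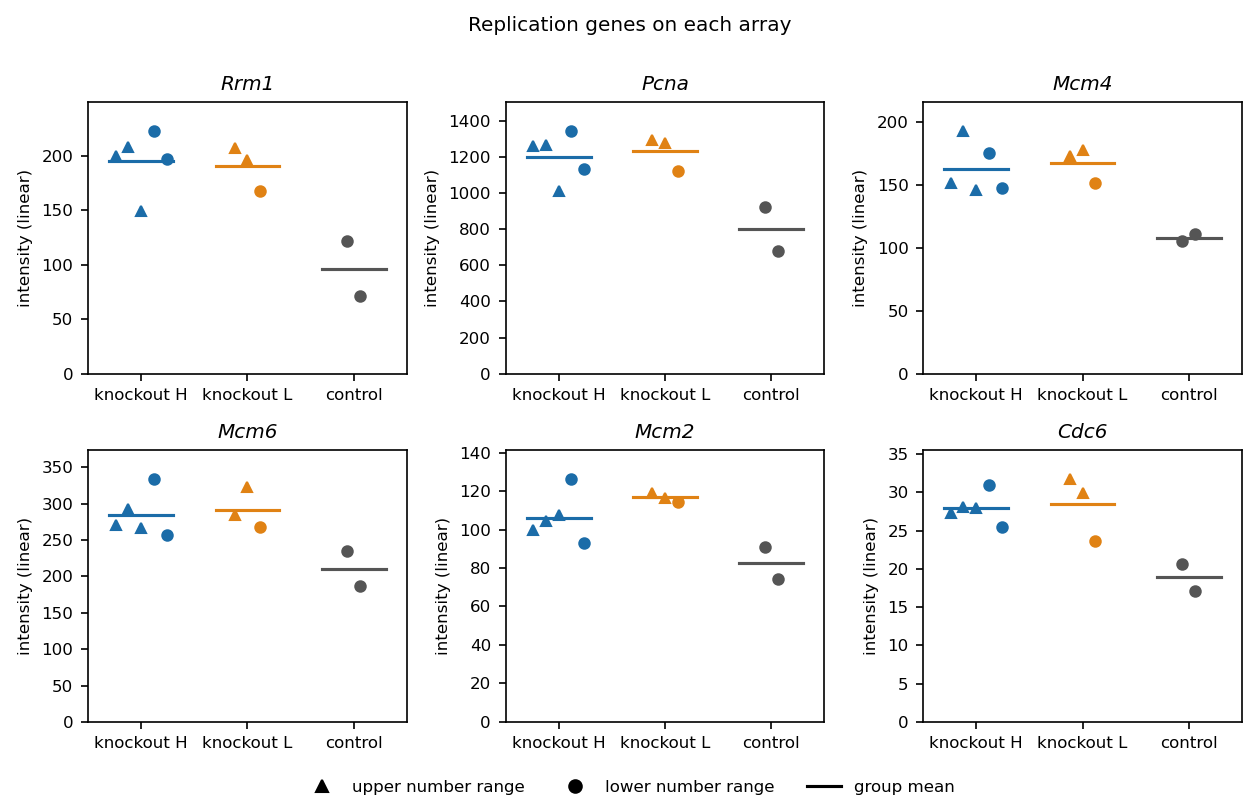
Linear intensity (y axis, starting at 0) of Rrm1, Pcna, Mcm4, Mcm6, Mcm2 and Cdc6 on each array, for knockouts H (5), knockouts L (3) and controls (2). Triangles are the upper and circles the lower number range, and lines are group means; the highest control lies below the lowest knockout in all 6 panels.

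For 3 of 3 genes of nucleotide synthesis every knockout lay above both controls (10% of all genes), for Tyms by a margin of almost nothing. Rrm1 had 200, 208, 149, 222 and 197 in H knockouts and 207, 196 and 168 in L knockouts, against 122 and 71.1 in controls. Its knockouts averaged 193 ± 23.7 (SD, n = 8) and its controls 96.4 ± 35.7 (SD, n = 2), and the controls lay further apart than the lowest knockout lay from the higher control (1.88-fold, log2 0.91 ± 0.19 SE, limma adjusted p = 0.0345). The call was lost on leaving out H4 (adjusted p = 0.107), H5 (0.142), L1 (0.0504), L2 (0.0567), control 1 (0.136) or control 2 (0.262). With the lower number range alone it held (0.90, limma adjusted p = 0.0309). The other Rrm1 probe set gave 0.26 ± 0.11 SE (limma adjusted p = 0.264), a far smaller difference that was also without overlap.

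Rrm2, the small subunit, had 241, 209, 159, 192 and 192 in H knockouts and 192, 260 and 174 in L knockouts, against 139 and 156 in controls. Knockout H3 lay just above the higher control (0.29 ± 0.17 SE, limma adjusted p = 0.404). Its other 2 probe sets gave 0.79 ± 0.17 SE and 0.74 ± 0.12 SE, and both passed among 23925 probe sets tested (limma adjusted p = 0.0376 and adjusted p = 0.0163). Tyms, thymidylate synthase, lay below the array medians on nearly every array. It had 15.0, 16.7, 14.2, 15.1 and 13.607 in H knockouts and 16.4, 19.1 and 14.9 in L knockouts, against 13.2 and 13.585 in controls, so that H5 and the higher control were all but equal (0.04, limma adjusted p = 0.819).

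Several probe sets measured 20 of the 33 genes, and their agreement differed by gene. Over all 67 member probe sets, 51 had a log2 difference above 0, and 23 had every knockout above both controls (10.7% of all probe sets) against 3 below both (9.51%). Of the 5 past the threshold, 4 rose, against 1.72% of all probe sets, and 1 fell, against 2.11%. The 16 probe sets of Mcm2 to Mcm7 all lay above 0, 12 of them without overlap, and 1 of Mcm7 rose (0.48 ± 0.09 SE, limma adjusted p = 0.0229). For Mcm2 the other probe set was at 0.02, and for Mcm5 at 0.50. Probe sets of the same gene share their RNA and are no replicates of each other, and 7 of the probe sets used carry a suffix for probes shared within a gene family or with other transcripts.

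**Figure D3:**
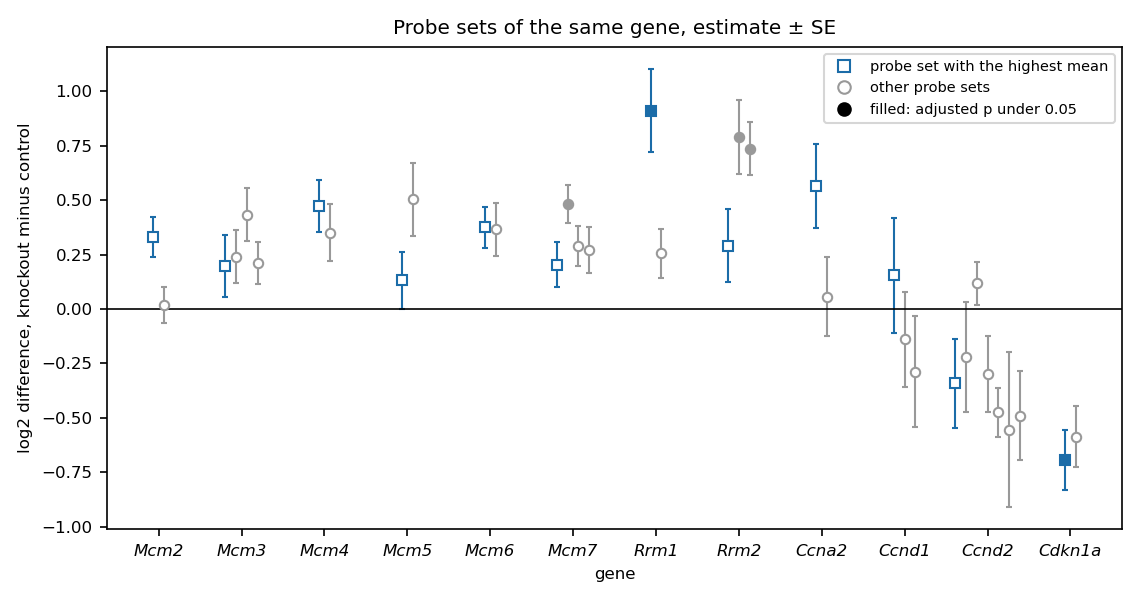
Log2 difference between knockouts and controls (y axis) with its SE for every probe set tested of 12 of the genes (x axis); squares are the probe sets used, circles the others, and filled symbols have an adjusted p under 0.05. All 16 probe sets of Mcm2 to Mcm7 lie above 0, both of Cdkn1a lie below it, and those of Ccnd1 lie on either side.

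Among the cyclins and Cdk1, 4 of 6 lay above 0 and none had all knockouts on one side of the controls. The S phase cyclin Ccna2 had 355, 358, 222, 386 and 320 in H knockouts and 285, 359 and 297 in L knockouts, against 241 and 190 in controls. Knockout H3 alone overlapped the controls (0.56 ± 0.19 SE, limma adjusted p = 0.147), and the other Ccna2 probe set was at 0.06. Cdk1, the mitotic kinase whose promoter is shown above, ran from 228 to 361 (median 312.4) in knockouts, against 288 and 205 in controls. Ccnb2, a mitotic cyclin, ran from 141 to 291 (median 210) in knockouts, against 178 and 140 in controls. Both had a log2 difference of 0.28 and overlapped.

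The G1 cyclins, which answer to growth signals, gave no common direction. Ccnd1 had 320, 719, 434, 486 and 474 in H knockouts and 440, 529 and 465 in L knockouts, against 383 and 470 in controls. Its H knockouts spanned both controls (0.15 ± 0.27 SE, limma adjusted p = 0.819), and its other probe sets were at -0.14 and -0.29. Ccnd2 ran from 269 to 470 (median 352) in knockouts, against 413 and 426 in controls (-0.34, limma adjusted p = 0.424). Of its 6 other probe sets 5 were also below 0, and 1 had all knockouts under both controls (-0.47, limma adjusted p = 0.052). Ccne1, the cyclin of S phase entry, had 75.5, 67.6, 83.7, 82.2 and 73.3 in H knockouts and 71.3, 72.5 and 70.5 in L knockouts, against 83.6 and 74.0 in controls (-0.06).

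The mitotic genes leaned the same way with wider spread. Of the 8 kinase, checkpoint and APC genes 7 lay above 0 (median 0.20), and of the 6 spindle, chromosome and proliferation genes 5 did (median 0.27), with none past the threshold. Every knockout lay above both controls for 1 of the 8 and 1 of the 6, near the share over all genes (10%). Kif11, the motor that separates the spindle poles, had 58.8, 67.8, 40.9, 56.4 and 54.8 in H knockouts and 56.1, 72.2 and 41.6 in L knockouts, against 33.6 and 28.3 in controls. It did not overlap at the probe set used (0.49 ± 0.18 SE, limma adjusted p = 0.165), while its other probe sets, at 0.31 and 0.43, overlapped. The checkpoint kinase Bub1 ran from 31.6 to 63.96 (median 47.1) in knockouts, against 24.96 and 24.1 in controls, without overlap (0.43, limma adjusted p = 0.293). Its relative Bub1b had 94.8, 113, 61.2, 88.4 and 76.1 in H knockouts and 81.6, 99.4 and 78.6 in L knockouts, against 68.2 and 42.7 in controls, where H3 fell between the controls (0.42 ± 0.19 SE, limma adjusted p = 0.27). The other Bub1b probe sets gave smaller differences, at 0.05 and 0.20, with overlap.

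Mki67, which encodes the proliferation antigen Ki-67, had 430, 476, 315, 340 and 376 in H knockouts and 424, 484 and 348 in L knockouts, against 294 and 328 in controls. Only H3 lay under a control, and the difference was within its error (0.18 ± 0.16 SE, limma adjusted p = 0.623). Topoisomerase Top2a, which untangles replicated chromosomes, ran from 335 to 619 (median 453) in knockouts, against 337 and 331 in controls (0.29). The differences for Prc1, Nusap1, Aurkb, Aurka, Cdc20, Ube2c and Plk1 lay between 0.13 and 0.31, each with overlap. The other Cdc20 probe sets were at -0.08 and 0.03, and those of Prc1 and Aurkb at 0.21 and 0.28. The survivin gene Birc5 (-0.07) and the centromeric histone gene Cenpa (-0.08) had differences just under 0.

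The inhibitor Cdkn1a moved in the other direction. It had 615, 459, 504, 604 and 648 in H knockouts and 604, 584 and 522 in L knockouts, against 964 and 970 in controls. Knockouts averaged 568 ± 64.7 (SD, n = 8) and controls 967 ± 4.15 (SD, n = 2), so that the highest knockout lay far below both controls (0.618-fold, log2 -0.70 ± 0.14 SE, limma adjusted p = 0.0291). Within the lower number range alone the difference was -0.68 (limma adjusted p = 0.0149), and a second, dimmer probe set gave -0.59 (limma adjusted p = 0.0546), with all 8 knockouts below both controls. The call was lost on leaving out H4 (adjusted p = 0.0801), H5 (0.0557), L3 (0.0788), control 1 (0.248) or control 2 (0.169).

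**Figure D4:**
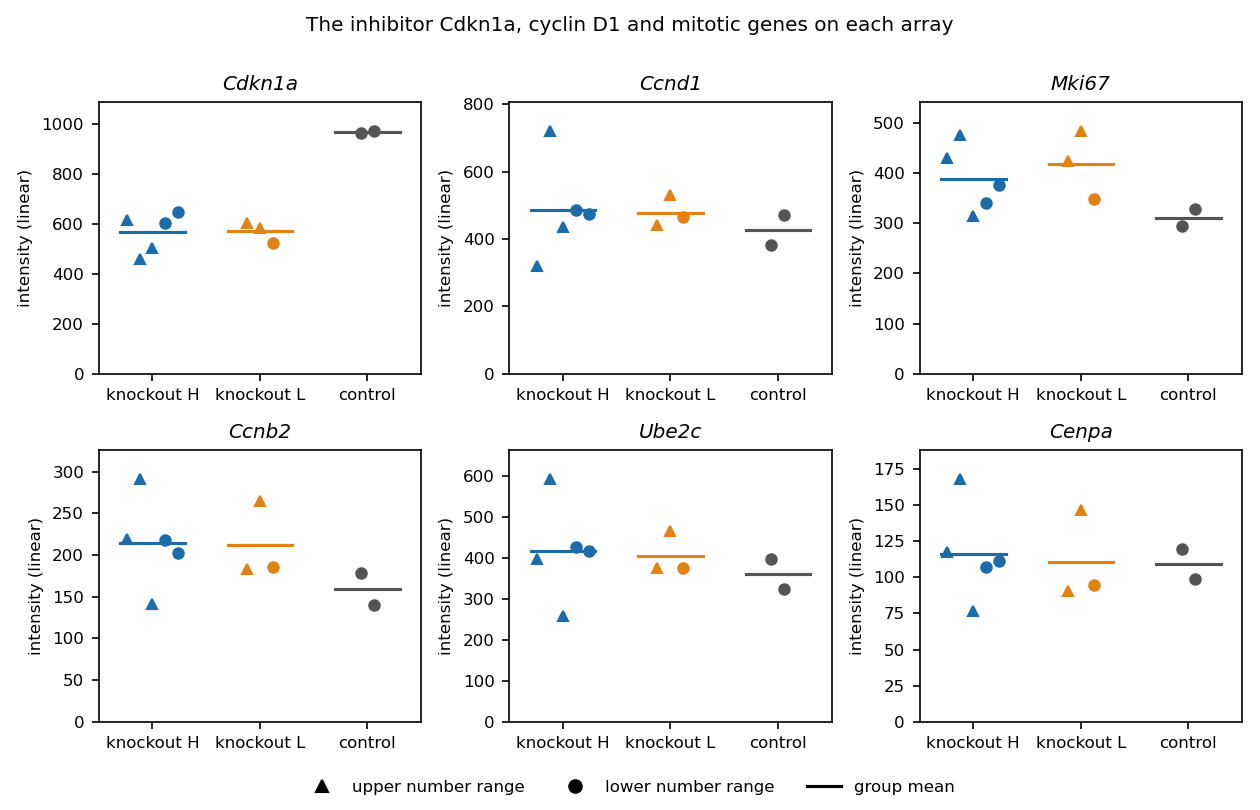
Linear intensity (y axis, starting at 0) of Cdkn1a, Ccnd1, Mki67, Ccnb2, Ube2c and Cenpa on each array, for knockouts H (5), knockouts L (3) and controls (2); triangles are the upper and circles the lower number range, and lines are group means. Cdkn1a lies between 459 and 648 in knockouts and at 964 and 970 in controls, while the groups overlap for the other 5 genes.

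Related genes from longer lists were read in the same fit. Of all genes 48.7% lay above 0, 1.52% rose and 2.79% fell. Of 41 other replication genes 37 lay above 0 (median 0.15), 2 rose and none fell. Tipin, of the fork protection complex, averaged 104 ± 7.57 in knockouts and 72.0 ± 15.5 in controls (SD, n = 8 and 2; 0.43, limma adjusted p = 0.0348). Dbf4, the activating partner of the origin kinase Cdc7, averaged 106 ± 8.57 in knockouts and 70.4 ± 7.93 in controls (0.45, limma adjusted p = 0.0407). Of 47 other mitotic genes 42 lay above 0 (median 0.13) and 1 rose, near the share over all genes (1.52%). This was Cep55, which acts in abscission. It averaged 106 ± 16.8 in knockouts and 56.0 ± 0.889 in controls (0.73 ± 0.17 SE, limma adjusted p just under 0.05). Of 21 genes of G1 to S control 13 lay above 0 (48.7% of all genes), with a median of 0.08, and 2 rose (1.52% of all genes). These were Tfdp1, the dimerisation partner of E2F factors (0.44, limma adjusted p = 0.0295), and the repressive E2F factor E2f6 (0.36, limma adjusted p = 0.0469).

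Other inhibitors did not pass with Cdkn1a. Of 11 cell cycle inhibitors 4 lay above 0 and 7 below (median -0.08), with none past the threshold by limma. At an unadjusted p under 0.05, limma gave 2 inhibitors lower (10.8% of all genes). The one with the smallest p, Cdkn1c, a relative of Cdkn1a, averaged 22.2 ± 2.09 in knockouts and 30.5 ± 2.85 in controls (-0.25, limma adjusted p = 0.147). Of 14 other genes of the p53 pathway 9 lay below 0 (median -0.06), again with none past the threshold by limma. Here too 2 were lower at an unadjusted p under 0.05 by limma (10.8% of all genes). Sesn1, a stress-induced p53 target, averaged 241 ± 62.4 in knockouts and 444 ± 2.10 in controls (-1.06 ± 0.29 SE, limma adjusted p = 0.0766), and Gadd45a, another, was at -0.48 (limma adjusted p = 0.24). All 8 knockouts lay below both controls for both, which 11.7% of all genes did.

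Some cell type markers differed in the same comparison. Of 13 crypt base and progenitor markers 8 lay above 0 and 5 below (-0.42 to 1.46, median 0.11). Past the threshold 3 rose, Cd44, Prom1 and Olfm4 (log2 1.08, 1.46 and 0.92), which 1.52% of all genes did. At an unadjusted p under 0.05, limma gave 5 higher and 1 lower (8.66% and 10.8% of all genes). The summed intensity of the 13 was 3812 to 4489 in knockouts, against 2218 and 2329 in controls. Of 11 enterocyte markers 9 lay below 0 and 2 above (-1.23 to 0.65, median -0.55). Past the threshold 4 fell (Cdx2, Vil1, Anpep and Fabp2), which 2.79% of all genes did. The summed intensity of the 11 was 25595 to 34259 in knockouts, against 39962 and 41522 in controls. The part of these markers in the cell cycle differences was not tested. None of 9 smooth muscle, 7 T cell, 4 B cell, 3 erythroid or 11 lung epithelial markers passed the threshold by limma, 1 of these, a B cell marker, having an unadjusted p under 0.05, and 1 of 6 macrophage markers rose (Mrc1, 0.48). Several of these lists still leaned. Log2 differences lay below 0 for 7 of 7 T cell markers (median -0.28) and 4 of 4 B cell markers (median -0.22). They lay above 0 for 9 of 11 lung epithelial markers (median 0.52) and 5 of 6 macrophage markers (median 0.18). Smooth muscle markers were mixed, with 5 of 9 above 0 (median 0.01). The part of these leans was not tested either. The summed T cell markers were 142 to 386 in knockouts, against 275 and 293 in controls, and the summed macrophage markers 459 to 738 in knockouts, against 539.3 and 552.3 in controls. Without H2 and H5, the arrays highest in lung transcripts, Cdkn1a still passed and Rrm1 did not (0.78, limma adjusted p = 0.123).

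H and L knockouts were not told apart by any member. Limma called 0 of 33 members, and 0 of all 13644 genes (0%), and at an unadjusted p under 0.05 it gave 0 members and 2.22% of all genes. No member had its H and L values apart, while 0.901% of all genes had every H knockout above every L knockout and 0.652% the reverse. Log2 differences of H over L were above 0 for 24 of 33 members (50% of all genes), with a median of 0.09. That median was about 0 or below without L3 (-0.0086), without the letter as a covariate (-0.0064) and with no covariates (-0.0135), and it ran up to 0.15 without H3. Other cell markers leaned between H and L as well, none past the adjusted threshold. Log2 differences were below 0 for 9 of 9 smooth muscle markers (median -0.57) and 8 of 11 enterocyte markers (median -0.05). They were above 0 for 10 of 11 lung epithelial markers (median 0.38), 4 of 4 B cell markers (median 0.24) and 6 of 6 macrophage markers (median 0.13). The part of these markers in the lean was not tested. The smallest p belonged to Cdc20, an activator of the APC, at 255, 326, 193, 292 and 242 in H knockouts and 209, 304 and 216 in L knockouts (0.27, 95% interval -0.13 to 0.67, limma adjusted p = 0.9998). Aurkb, a kinase of the chromosomal passenger complex, had 64.6, 79.0, 41.8, 81.5 and 67.9 in H knockouts and 56.1, 68.9 and 50.7 in L knockouts (0.27, 95% interval -0.17 to 0.70). The interval was -0.06 to 0.32 for Ccne1 and -0.28 to 0.08 for Gmnn. Over the 33 members the intervals reached down to -0.61 (Ccnd1) and up to 0.77 (Aurka), so differences of that size between H and L remain possible.

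The number ranges gave no called member either. In knockouts of the upper against the lower range, limma called 0 of 33 members and 0.645% of all genes, and gave 0 members and 12.1% of all genes at an unadjusted p under 0.05. No member had its ranges apart, which 5.24% of all genes did with the upper range higher and 5.78% with it lower. Log2 differences lay above 0 for 28 of 33 members (48.2% of all genes), with a median of 0.12. The median was 0.07 without L3, 0.08 without L2 and 0.18 without H3. Among cell markers, 9 of 11 of enterocytes (median 0.10), 6 of 7 of T cells (median 0.18) and 5 of 6 of macrophages (median 0.09) were also above 0. Below 0 were 4 of 4 of B cells (median -0.22), 7 of 9 of smooth muscle (median -0.16) and 9 of 11 of lung epithelium (median -0.05). The part of these markers was not tested. Mcm7 had 565, 647, 623, 579 and 488 in upper range knockouts and 610, 550 and 480 in lower range knockouts (0.18, limma adjusted p = 0.487). Mki67 had 424, 484, 430, 476 and 315 in upper range knockouts and 340, 348 and 376 in lower range knockouts (0.25, limma adjusted p = 0.537). For Tyms the difference was 0.12 (limma adjusted p = 0.507).

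The letter in the titles gave a lean across the members that no single gene carried past the threshold. In mice titled M against those titled F, 1 of the 33 log2 differences was above 0, that of Cdkn1a, and 32 were below, while 46.5% of all genes were above 0, with a median of -0.12 over the members and -0.0077 over all genes. The median of the members was -0.05 without L2, -0.08 without H3 and -0.19 without L3. Markers of other cells leaned with the letter, none past the adjusted threshold. Below 0 were 7 of 7 T cell markers (median -0.24) and 4 of 4 B cell markers (median -0.48), the B cell markers each at an unadjusted p under 0.05 by limma. Above 0 were 9 of 9 smooth muscle markers (median 0.32) and 10 of 11 lung epithelial markers (median 0.17). Their part in the lean of the members was not tested. Limma called 0 members (0.0513% of all genes), and gave 3 lower at an unadjusted p under 0.05, namely Mcm6, Mcm2 and Mcm7 (2.55% of all genes). Mcm6 had 284, 271, 292, 267 and 257 in M knockouts and 323, 333 and 268 in F knockouts, with 187 in the M control and 234 in the F control (log2 -0.23, limma adjusted p = 0.988). Mcm2 had 119, 99.6, 104, 108 and 92.8 in M knockouts and 117, 126 and 114 in F knockouts, with 74.0 in the M control and 90.9 in the F control (-0.21, limma adjusted p = 0.988). The M median lay below the F median in knockouts for 23 of 33 members (69.7%), which 52.7% of all genes did, and the M control lay below the F control for 23 (69.7%), which 53.5% of all genes did. Both held for 16 members (48.5%) and 31.4% of all genes. The single control of each letter has no replicate.

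Single knockout arrays differed more in the mitotic genes than in the replication genes. Among the 8 knockouts H3 was the lowest for 22 of 33 members (15.1% of all genes), and H2 the highest for 14 (17.8%), followed by L2 for 8 (10.9%) and H4 for 7 (14.8%). Averaged over the 14 mitotic members, the log2 deviation from the mean of all 10 arrays was 0.41 in H2, 0.32 in L2 and -0.36 in H3, against -0.18 and -0.32 in the controls, so that H3 lay below both controls. Averaged over the 12 replication and nucleotide members, it was 0.15 in H2, 0.19 in L2 and -0.09 in H3, against -0.23 and -0.38 in the controls, and every knockout lay above both. Without H3 the count of members with all knockouts above both controls was 20 in place of 12 (11.2% of all genes in place of 10%), and without control 1 it was also 20 (19% of all genes). Markers of other cells differed between these arrays too: the smooth muscle markers deviated by 0.48 in H3 and -0.43 in H2, the lung epithelial markers by -0.61 in H3 and 1.02 in H2, and the T cell markers by 0.52 in L2. Their part in the order of the arrays was not tested.

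**Figure D5:**
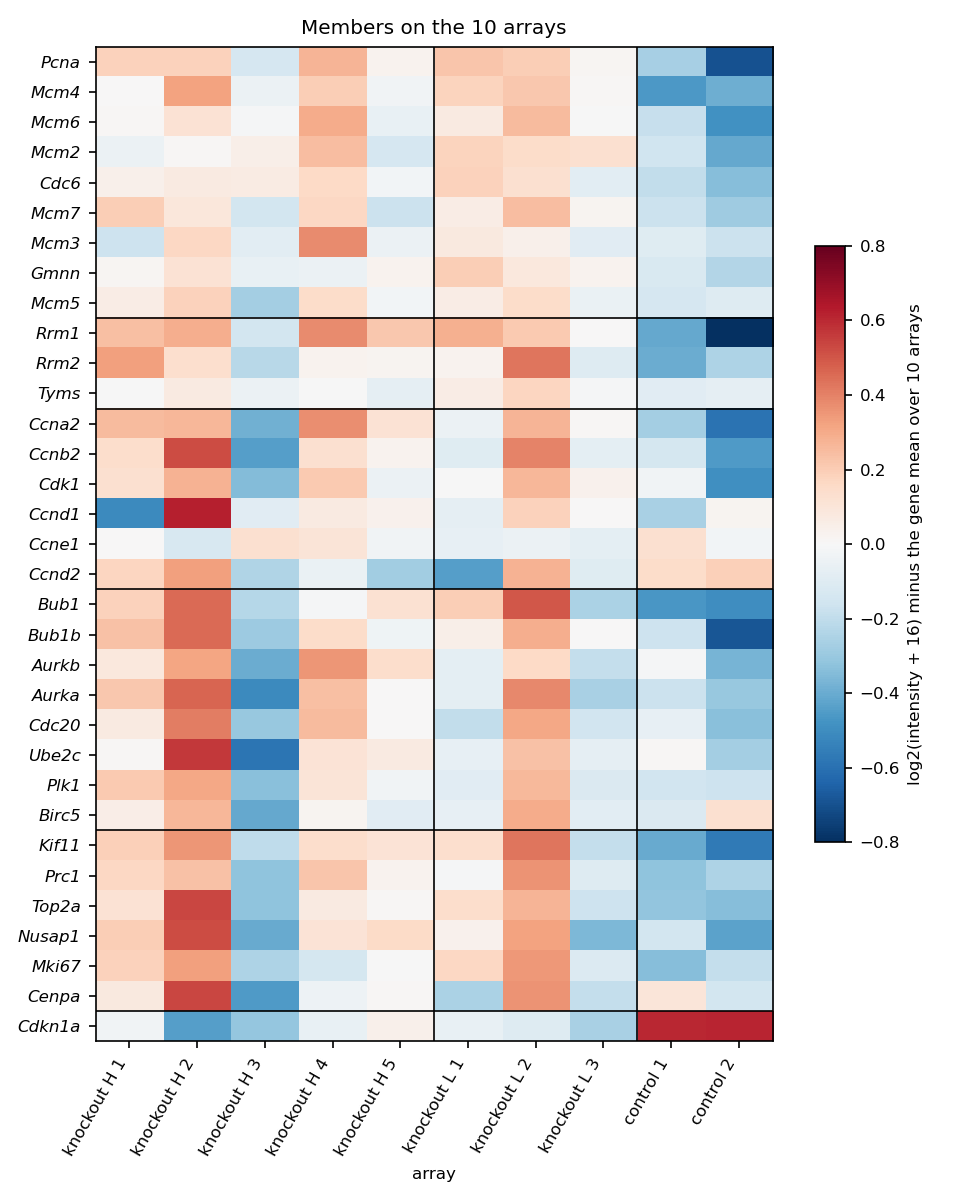
Log2(intensity + 16) minus the mean of the gene over the 10 arrays (colour, red above and blue below) for the 33 genes (rows, grouped by role) on each array (columns: 5 knockouts H, 3 knockouts L, 2 controls). The controls are blue in most replication rows and red for Cdkn1a, and H3 is blue in the mitotic rows, where H2 and L2 are red.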

How the data were processed

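The authors deposited 1 linear intensity per probe set and array, per the file headers; how background and scaling were handled is not given in the sources used here. Since all array medians lay between 18.4 and 18.8, no further normalization was applied. Of 45037 probe sets kept after 64 controls, 34945 have 1 gene symbol, and 18193 genes were each read from the probe set with the highest mean. Genes with a mean above the 25th percentile (13644) were tested on log2(intensity + 16) with limma 3.58.1 in R 4.3.3 (lmFit, eBayes, Benjamini-Hochberg at 0.05), with number range and letter as covariates and H, L and control as 3 groups for H against L. The code was tested on simulated data. Genes, lists and the naming rule were chosen with earlier results of these data known. Values on each array are given for called members filled up to the 10 with the smallest p, the members with the smallest p in each other comparison, and Mki67, Pcna, Ccnd1 and Cdkn1a. Precision is limited by 2 controls. Promoters came from RefSeq, GRCm38.p6.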

Additional observations from a re-analysis of the deposited data

How the results depend on the processing

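The number of members called in knockouts against controls, 2 as reported, depended on the setting. It was 8 with no covariates (Pcna, Mcm2, Mcm4, Mcm6, Cdc6 and Kif11 in addition), 4 without the letter, 5 in the lower number range only, 1 with no filter on dim genes, 1 without the 2 arrays highest in lung transcripts, and between 0 and 3 on leaving out each replicate. It was 0 without H4, without H5 and without either control, and 1 without L1 and without L2; where a control is left out, the lone control is assumed to vary like the knockouts. Calls over all genes, 588 as reported, ran from 0 without control 1 to 1366 with no covariates. The count of members with all knockouts above all controls, 12 as reported, was 21 in the lower number range only (19.1% of all genes), and between 12 and 20 on leaving out each replicate. Ccnd1, at 0.15 as reported, reversed to -0.091 with the mean of its probe sets and to -0.059 without control 1 (-0.06 to 0.33 over the replicates left out), and to -0.14 and -0.29 with its other probe sets, which were added after seeing the data; the cause was not tested. Rrm1 also lost its call with no filter on dim genes (adjusted p = 0.0533, limma) and with the mean of its probe sets (0.38, limma adjusted p = 0.0683). The log2 differences of Rrm1 (0.26 to 1.26) and Cdkn1a (-0.80 to -0.59) kept their sign in all 22 alternatives of each, and the median of the members stayed between 0.14 and 0.34 in 21. The median ran from -0.01 to 0.23 for H over L, from 0.07 to 0.18 for the upper over the lower range and from -0.22 to -0.05 for M over F. H against L, the number ranges and the letter had 0 members called under every alternative run. The lower range alone could not be run for the range comparison, nor the fit without the letter for the letter. No paired analysis was possible because the titles carry no replicate numbers shared between groups. Intensities near the array medians, such as those of Tyms and Cdc6, limit what those genes can show.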
